A study of Mus musculus with 12 samples.

Results

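Genes that encode Polycomb proteins, heterochromatin proteins, histone deacetylases and their partner subunits were followed in fetal testes with and without Dmrt1, a DM domain transcription factor gene of germ cells and Sertoli cells. The 36 members were chosen by name, and each was read from the probe sets that the array annotation assigns to that gene alone. On the array 18193 genes had such a probe set, among them 35 of the 36 members, with 82 probe sets in all. Suv39h1 had none. Of the 12726 genes bright enough to be tested, 34 were members, because the single probe set left for Cbx3 read between 9.35 and 17.6 on the 12 arrays. A gene was represented by its brightest probe set, and its values are intensities on a linear scale.

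The tissue was mouse testis labelled E15.5, total RNA was hybridised, and the 4 groups held 3 arrays each. They were wild type of the 129Sv strain, dmrt1 knockout of the 129Sv strain, wild type of the B6 strain and dmrt1 knockout of the B6 strain. The title of the series calls the knockout conditional, but the sources used here do not give the allele or any Cre driver, nor whether an array holds 1 embryo or several. The growth protocol speaks of P28 embryos, against the E15.5 of the other labels. The first numbers in the array titles differ within each group, and B6 wild-type array 3 has none, but their meaning is not given. Since no source states that arrays of a group came from separate animals, the spread behind each p-value is that between these samples, which may be technical.

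Polycomb repressive complex 2 (PRC2) methylates histone H3 at H3K27, and Polycomb repressive complex 1 (PRC1) places ubiquitin on histone H2A and compacts chromatin. Together they hold developmental genes silent in cells that do not use them. Heterochromatin rests on a different mark, methylated H3K9, which SETDB1, EHMT1, EHMT2, SUV39H1 and SUV39H2 write and the HP1 proteins read. Histone deacetylases remove the acetyl groups of active chromatin and work in complexes such as NuRD. In fetal male germ cells these systems act while DNA methylation is erased and rebuilt.

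Dmrt1 itself fell by 2.64 in the 129Sv knockout and by 3.72 in the B6 knockout on the log2 scale (limma adjusted p = 4.72e-07 and 1.97e-08). The falls differed by 1.08 (limma adjusted p = 0.045). Its remaining signal was 145 to 181 in the 129Sv knockout and 64.0 to 86.4 in the B6 knockout, a log2 difference of 1.17 (limma adjusted p = 0.00017). The part of this signal in the comparisons between the knockouts was not tested. Germ cell, Sertoli cell and Leydig cell genes were read on all 12 arrays, with Ddx4 between 1700.0 and 4619, Sox9 between 557 and 1072 and Cyp17a1 between 3324 and 8415. The Actb ratio, that of the probe set at its 3′ end over the one at its 5′ end, rises as RNA degrades and was 6.30 on B6 knockout array 3 and 5.24 on 129Sv knockout array 1, against 1.99 to 3.91 on the others. B6 knockout array 3 also stood apart in the members. On it 6 of the 34 lay more than 0.5 log2 units from their group's median (Chd4, Phc1, Setdb1, Ring1, Suz12 and Suv39h2), against 1 on B6 wild-type array 3 and 0 on each of the other arrays. The part of RNA quality in these departures was not tested.

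Loss of Dmrt1 was accompanied by few changes among these genes. In 129Sv, L3mbtl2 and Cbx7 rose and no member fell, 2 of 34 (5.88%) where 8.31% of all tested genes passed the test, 4.07% higher and 4.24% lower. In B6, Mta1 rose and no member fell, 1 of 34 (2.94%) where 7.90% of all tested genes passed, 2.45% higher and 5.45% lower. The members' shares were thus not above the background in either strain. At an unadjusted limma p under 0.05 the counts were 8 of 34 in 129Sv, where 21.0% of all tested genes had such a p, and 10 of 34 in B6, where 24.8% did. The count in 129Sv was 1, L3mbtl2, without wild-type array 1 or 3 or knockout array 1 of that strain. With averaged probe sets, or with no trend in the variance, Ezh1 (lower) passed in B6 in place of Mta1. The count in B6 was 0 without 129Sv wild-type array 1 or 3, B6 wild-type array 2 or 3 or B6 knockout array 2 or 3, and 3 without B6 knockout array 1. The median log2 difference, knockout minus wild type, was 0.07 over the members and -0.01 over all genes in 129Sv, and -0.04 and 0.03 in B6.

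On the brightest probe set of each gene, the arrays bounded the knockout effect closely for most members. The 95% confidence interval lay within 2-fold in either direction for 32 of the 34 in 129Sv and for all 34 in B6, and within 1.5-fold for 24 and 22. A gene that did not pass may still differ by less than these bounds, and its other probe sets may lie outside them. In B6 the lowest differences of single probe sets were -1.79 for Ezh1, -1.26 for Setdb1 and -1.23 for Pcgf6. The highest among the 19 members with several tested was 0.88 for Suv39h2. Of those 19, probe sets of a gene spread over more than 1 log2 unit for 4 in B6 and 0 in 129Sv. Averaged over the strains, the knockout raised L3mbtl2, Mta1 and Hdac1 and lowered Ezh1, 4 of 34 members (11.8%) against 13.5% of all tested genes, 5.62% higher and 7.88% lower. The difference between the knockout effects of the strains passed for 0 of 34 by limma, against 1.31% of all tested genes. An unadjusted p under 0.05 was found for 5 of the 34 and for 16.3% of all tested genes. When a number in the 129Sv array titles, whose meaning is not given, entered the model, none of the 4 averages passed (L3mbtl2 0.51, Mta1 0.35, Hdac1 0.28 and Ezh1 -0.48, adjusted p = 0.0723, 0.077, 0.147 and 0.104). Of the 129Sv wild-type arrays only array 2 shares its number with the knockouts, so that model compares the 129Sv knockouts with that array alone. Without the number the averages were 0.49 for L3mbtl2 and -0.47 for Ezh1, the highest and lowest of the members. The knockout effects of the strains come from separate control arrays.

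**Figure D1:**
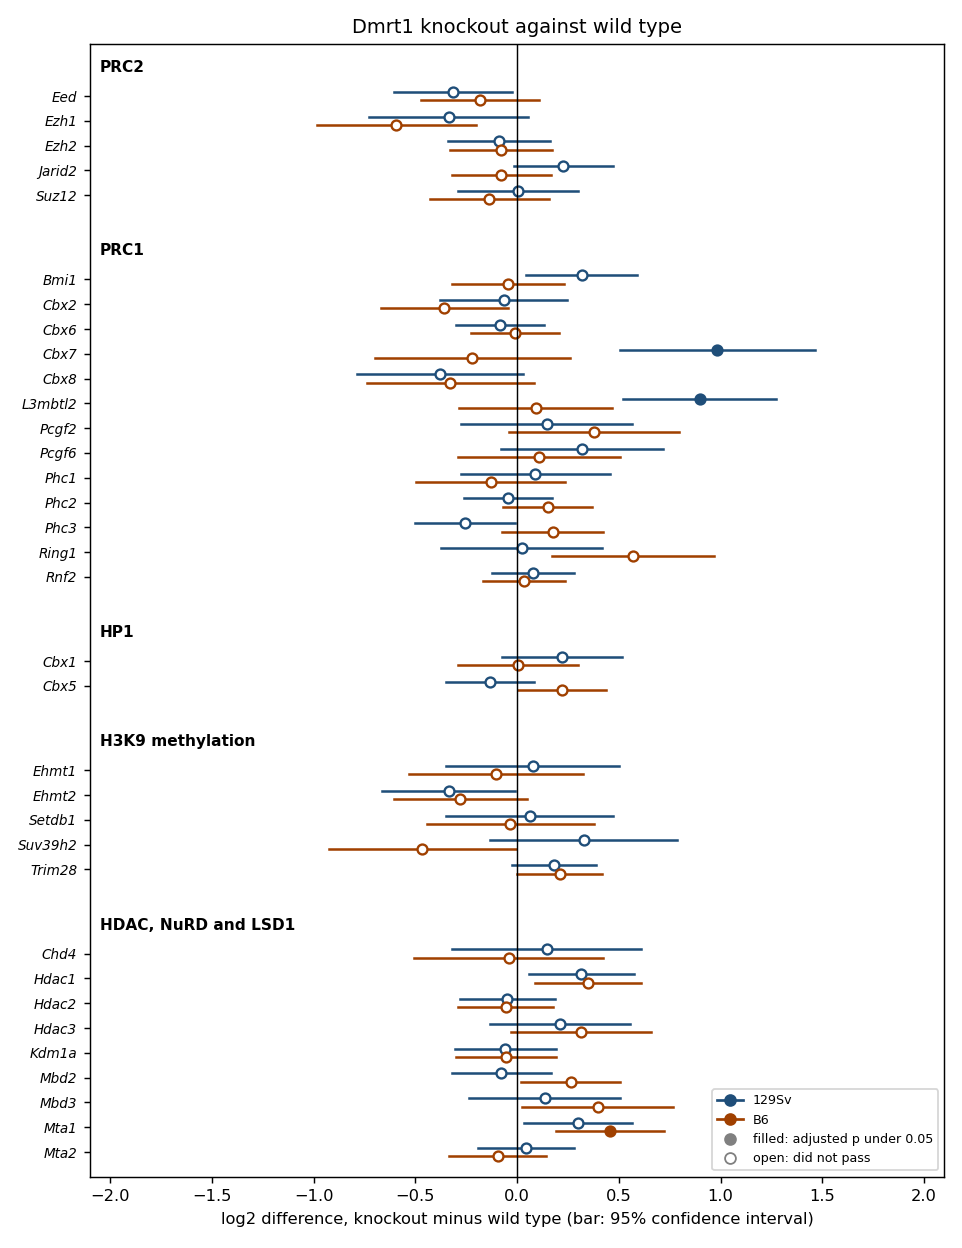
Log2 difference, knockout minus wild type, of the 34 tested members in 129Sv (blue) and B6 (brown), with 95% confidence intervals from the fit over all genes (3 arrays per group). Filled points passed an adjusted p of 0.05: L3mbtl2 and Cbx7 in 129Sv and Mta1 in B6, while most other intervals cross 0.

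Of PRC2, all 5 members were tested and none passed in either strain's knockout on its brightest probe set. Ezh1, a catalytic subunit that is an alternative to EZH2, came nearest. It read 203, 218 and 219.7 on the 129Sv wild-type arrays and 159, 157 and 193 on the knockout arrays. The B6 values were 120.1, 115 and 180.1 in wild type and 85.3, 91.3 and 93.0 in knockout. Every knockout array thus lay below every wild-type array of its strain. How often the groups of all tested genes lie apart within a strain is not given here. Such separation, for this and other members, therefore only describes the arrays. The log2 differences of Ezh1 were -0.34 ± 0.18 (SE) in 129Sv (limma adjusted p = 0.321) and -0.59 ± 0.18 in B6 (adjusted p = 0.0617). Their average, -0.47 ± 0.13, passed (adjusted p = 0.0258), and Ezh1 was the single member to fall in that comparison. That call was lost without 129Sv wild-type array 3, 129Sv knockout array 1 or 2, B6 wild-type array 3 or B6 knockout array 1 (adjusted p = 0.0676, 0.0664, 0.0591, 0.0712 and 0.0501), while the difference stayed between -0.36 and -0.46.

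The other Ezh1 probe sets did not all follow it. A probe set of Ezh1 (1429629_at) read 57.3, 90.5 and 96.7 in B6 wild type and 28.2, 27.7 and 15.6 in B6 knockout. It fell there by 1.79 ± 0.28 on the log2 scale (3.45-fold, limma adjusted p = 0.00203 over the 21900 probe sets tested). In 129Sv the same probe set read 101, 98.0 and 85.2 in wild type and 90.7, 85.2 and 139 in knockout, a log2 difference of 0.12 ± 0.28 (adjusted p = 0.891). The difference between these effects was 1.90 ± 0.39 (adjusted p = 0.0577). The reading was thus low in the B6 knockout alone of the 4 groups, but the strains' effects did not pass as different. A further probe set of Ezh1 (1418290_a_at) differed by -0.47 ± 0.24 in 129Sv and -0.75 ± 0.24 in B6 (adjusted p = 0.329 and 0.0887).

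The Ezh1 promoter is shown because Ezh1 is the member that fell in the knockout averaged over the strains. It lies on the minus strand at chr11:101226414-101226713 (GRCm38.p6, RefSeq), from 250 bases before the start of the gene to 50 after it, and capitals mark its 23 CpG dinucleotides.
Ezh1: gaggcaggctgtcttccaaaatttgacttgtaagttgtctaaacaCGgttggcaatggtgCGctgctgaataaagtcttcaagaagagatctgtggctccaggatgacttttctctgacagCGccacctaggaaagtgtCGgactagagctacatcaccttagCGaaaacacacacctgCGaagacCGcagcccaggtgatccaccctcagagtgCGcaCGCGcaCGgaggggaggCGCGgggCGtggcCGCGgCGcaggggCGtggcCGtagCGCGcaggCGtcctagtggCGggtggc

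Ezh2, the main H3K27 methyltransferase of dividing cells, had group means of 1976 ± 201 and 1854 ± 108 (SD, n = 3) in 129Sv wild type and knockout, and 2095 ± 218 and 1987 ± 232 in B6. Its log2 differences were -0.09 ± 0.12 (SE) and -0.08 ± 0.12. Suz12, the scaffold subunit, differed by less than 0.01 in 129Sv and by -0.14 ± 0.14 in B6 on its brightest probe set. All 5 tested probe sets of Suz12 were above 0 in 129Sv, by up to 0.24, and below 0 in B6, by -0.14 to -0.54. The differences between these effects were 0.14 to 0.76, and none passed over all probe sets (limma adjusted p between 0.342 and 0.77, and between 0.2 and 0.574 for the effects in B6). Suz12 was among the members that departed on B6 knockout array 3. Eed, which binds the methylated histone tail, differed by -0.32 ± 0.14 in 129Sv (limma adjusted p = 0.189) and -0.18 ± 0.14 in B6 (adjusted p = 0.417).

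Jarid2 helps bring PRC2 to its sites. On its brightest probe set it differed by 0.23 ± 0.11 in 129Sv (limma adjusted p = 0.273) and by -0.08 ± 0.11 in B6. A dimmer probe set of Jarid2 (1422697_s_at) read 801, 724 and 954 in 129Sv wild type and 1186, 1124 and 1251 in 129Sv knockout. The groups did not overlap, and it rose by 0.53 ± 0.14 on the log2 scale (adjusted p = 0.0351). In B6 that probe set read 627, 537 and 688 in wild type and 731, 717 and 621 in knockout, which overlap. In the fit of all probe sets, 66 of the members were tested. The members' probe sets that passed were 3, all higher, in the 129Sv knockout (5.74% of all probe sets passed) and 1, lower, in the B6 knockout (5.02%).

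Of PRC1, all 13 members were tested, 2 rose in the 129Sv knockout and none passed in the B6 knockout. L3mbtl2 encodes an MBT domain protein of the PRC1.6 variant complex, which represses germ line genes in other cells. It read 1062, 891 and 799.7 in 129Sv wild type and 1771, 1824 and 1510.4 in 129Sv knockout. In B6 it read 713, 959.7 and 1005 in wild type and 1015, 1132 and 723 in knockout. The 129Sv knockout arrays thus lay above all 9 others, which overlapped. The rise in 129Sv was 1.86-fold, 0.90 ± 0.18 on the log2 scale (limma adjusted p = 0.00461). In B6 the difference was 0.09 ± 0.18 (adjusted p = 0.778), and the difference between the effects, 0.81 ± 0.25, did not pass (adjusted p = 0.136). B6 knockout array 3, that of the highest Actb ratio, lay 0.49 log2 units below its group's median. B6 wild-type array 1 lay 0.43 below its own. B6 knockout arrays 1 and 2 lay above all B6 wild-type arrays. The part of RNA quality in the B6 difference was not tested.

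Cbx7 encodes a chromodomain protein that ties PRC1 to methylated H3K27 and is a main such subunit of embryonic stem cells. It was dim, near the intensity of 16 above which a gene counted as measured. It read 19.0, 23.5 and 20.2 in 129Sv wild type and 43.5, 33.6 and 47.8 in 129Sv knockout. The B6 arrays read 13.8, 18.6 and 19.9 in wild type and 15.7, 17.1 and 12.0 in knockout. Here too the 129Sv knockout arrays lay above all the others. The rise in 129Sv was 1.98-fold, 0.98 ± 0.22 on the log2 scale (limma adjusted p = 0.0123). In B6 the difference was -0.22 ± 0.22 (adjusted p = 0.565), and the difference between the effects was 1.20 ± 0.32 (adjusted p = 0.0818). With values below 16 set to 16 that difference of effects passed, and Cbx7 was then the 1 member called.

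Both calls rested on the 129Sv arrays in unequal measure. L3mbtl2 kept its call without any 1 array, whereas Cbx7 lost it without 129Sv wild-type array 1 or 3 or knockout array 1 (limma adjusted p = 0.0648, 0.055 and 0.0513). In 129Sv the number in the array titles was 7 for wild-type array 2 and all 3 knockout arrays and 11 for wild-type arrays 1 and 3. Within the number 7 the wild-type array read 891 for L3mbtl2 and 23.5 for Cbx7, below each of the 3 knockout arrays for both genes. With that number as a covariate neither gene passed (adjusted p = 0.0812 and 0.245), and the differences were 0.93 and 0.81.

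Some cell type markers moved in the same comparisons. Of 8 pluripotent cell markers, 7 rose in the 129Sv knockout and 5 in the B6 knockout (Esrrb, Gdf3, L1td1, Nanog and Sox2 in both). Their mean log2 level per array was 6.01 to 6.36 in 129Sv wild type and 8.96 to 9.47 in 129Sv knockout, and 6.39 to 6.79 and 6.86 to 8.17 in B6. Of 9 germ cell markers, 2 rose in the 129Sv knockout (Dppa3 and Rnf17), and their mean log2 level was 10.56 to 10.66 in wild type and 10.44 to 10.96 in knockout. Of 12 Sertoli cell markers, 3 fell in 129Sv (Cst9, Fshr and Inhbb) and 3 in B6 (Cst9, Fshr and Sox8). Their mean log2 level per array was 9.93 to 10.09 in 129Sv wild type and 9.55 to 9.76 in knockout, and 10.11 to 10.31 and 9.79 to 9.89 in B6. The part of these cells in the members' knockout differences was not tested. In whole testes, fewer cells of a type and less RNA per cell cannot be told apart.

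The promoters of both genes are shown because they are the members that rose in the 129Sv knockout. Both genes lie on chromosome 15 (GRCm38.p6, RefSeq), with L3mbtl2 on the plus strand at chr15:81663639-81663938 and Cbx7 on the minus strand at chr15:79932597-79932896. The capitals mark 17 CpG dinucleotides in L3mbtl2 and 33 in Cbx7. The promoter of Cbx6, another chromodomain gene of PRC1, lies on the minus strand of the same chromosome at chr15:79834284-79834583. Cbx6 differed by -0.08 ± 0.10 in 129Sv and -0.01 ± 0.10 in B6.
L3mbtl2: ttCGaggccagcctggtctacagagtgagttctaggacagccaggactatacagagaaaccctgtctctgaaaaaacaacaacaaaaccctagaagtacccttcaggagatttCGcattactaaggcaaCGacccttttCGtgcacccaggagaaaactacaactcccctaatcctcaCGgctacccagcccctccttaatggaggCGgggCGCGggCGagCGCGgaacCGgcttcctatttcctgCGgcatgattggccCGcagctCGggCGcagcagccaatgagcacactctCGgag
Cbx7: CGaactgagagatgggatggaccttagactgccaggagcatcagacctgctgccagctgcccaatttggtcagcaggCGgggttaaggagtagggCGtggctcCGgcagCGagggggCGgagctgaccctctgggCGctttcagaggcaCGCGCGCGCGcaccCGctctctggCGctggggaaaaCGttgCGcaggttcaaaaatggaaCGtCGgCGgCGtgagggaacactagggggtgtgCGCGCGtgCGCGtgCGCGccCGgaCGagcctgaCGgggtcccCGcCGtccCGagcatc

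**Figure D2:**
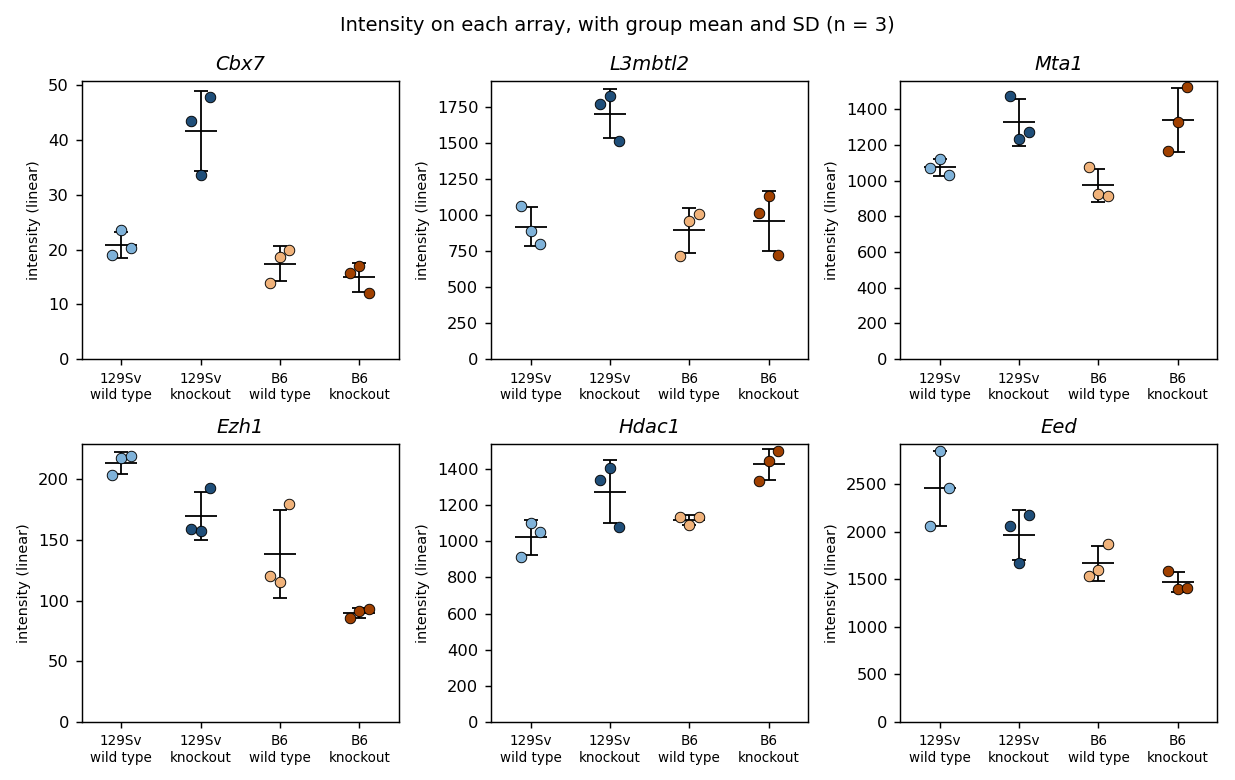
Intensity on each of the 12 arrays (points), with group mean and SD (lines, n = 3), of 6 members that passed in at least 1 comparison; each vertical axis is linear, starts at 0 and has its own scale. Cbx7 and L3mbtl2 are high on the 3 129Sv knockout arrays, Mta1 and Hdac1 have higher means in both knockouts, and Ezh1 and Eed have lower means in B6.

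The other PRC1 subunits did not pass in either knockout. Rnf2, the main ubiquitin ligase of PRC1, had group means of 1567 ± 95.2 and 1652 ± 50.6 (SD, n = 3) in 129Sv wild type and knockout and 1738 ± 121 and 1776 ± 38.7 in B6. Its partner Bmi1 read 989, 1136 and 1030.1 in 129Sv wild type and 1251, 1289.7 and 1388 in knockout. These groups did not overlap, but the log2 difference of 0.32 ± 0.13 did not pass (limma adjusted p = 0.159). In B6, Bmi1 differed by -0.04 ± 0.13. Ring1, the second ubiquitin ligase, read 126, 116 and 111 in B6 wild type and 146, 156 and 232 in B6 knockout, a log2 difference of 0.57 ± 0.19 (adjusted p = 0.076) in which the highest value came from array 3.

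Among the chromodomain subunits, Cbx8 read 86.6, 92.6 and 99.5 in 129Sv wild type and 74.2, 69.1 and 70.7 in knockout. The groups were separate, with a log2 difference of -0.38 ± 0.19 that did not pass (limma adjusted p = 0.279), and in B6 it was -0.33 ± 0.19. Cbx2 differed by -0.07 ± 0.15 in 129Sv and -0.36 ± 0.15 in B6 (adjusted p = 0.147). No chromodomain subunit fell by the test. On their brightest probe sets Pcgf2, Pcgf6, Phc1 and Phc2 differed by -0.13 to 0.38 over both strains. The other tested probe set of Pcgf6 differed by -1.23 in B6 and did not pass over all probe sets.

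Phc3, which encodes a polyhomeotic subunit of PRC1, was the 1 member of 34 whose knockout arrays lay apart from wild type in opposite directions in the strains, as did 1.59% of all tested genes. It read 605, 624 and 663 in 129Sv wild type and 542, 491 and 552 in knockout. On the B6 arrays it read 655, 580.1 and 635 in wild type and 666, 737 and 706 in knockout. Neither difference passed, at -0.26 ± 0.12 in 129Sv (limma adjusted p = 0.216) and 0.17 ± 0.12 in B6 (adjusted p = 0.364). The difference between them, -0.43 ± 0.16, did not pass either (adjusted p = 0.212).

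Of the HP1 genes, Cbx1 and Cbx5 were tested, and neither passed in a knockout. Cbx1 (HP1 beta) differed by 0.22 ± 0.14 in 129Sv and by less than 0.01 in B6. Cbx5 (HP1 alpha) differed by -0.13 ± 0.10 in 129Sv and 0.22 ± 0.10 in B6 (limma adjusted p = 0.52 and 0.198). In B6 the 4 tested probe sets of Cbx5 disagreed, 2 above 0 and 2 below it, with extremes of -0.54 and 0.22. Cbx3 (HP1 gamma) was not tested.

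Of the H3K9 genes, 5 of 6 were tested and none passed in a knockout. Setdb1 encodes the methyltransferase that silences retroviral elements. On its brightest probe set, group means were 673 ± 56.7 and 703 ± 76.3 (SD, n = 3) in 129Sv wild type and knockout and 535 ± 113 and 526 ± 124 in B6. The other tested probe set of Setdb1 differed by -0.17 in 129Sv and -1.26 in B6, and neither passed over all probe sets. Trim28, which encodes the corepressor partner of SETDB1, read 3089, 2943 and 3129 in B6 wild type and 3537, 3424 and 3628 in B6 knockout. The groups were separate, with a log2 difference of 0.21 ± 0.10 (limma adjusted p = 0.199), and in 129Sv it was 0.18 ± 0.10. Ehmt2 (G9a) differed by -0.34 ± 0.15 and -0.28 ± 0.15, and its partner Ehmt1 by 0.08 ± 0.20 and -0.10 ± 0.20. Neither of the pair passed (adjusted p between 0.222 and 0.883).

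Suv39h2, a methyltransferase prominent in the male germ line, was read by 3 tested probe sets that parted on B6 knockout array 3. The brightest read 523, 744 and 657 in B6 wild type and 596, 483 and 337 in B6 knockout. The probe set 1422979_at read 21.6 on knockout array 3 and the probe set 1436561_at read 135, against 54.8 to 59.7 and 36.9 to 41.1 on the other B6 knockout arrays. On that array the 2 moved in opposite directions. The brightest differed by 0.33 ± 0.22 in 129Sv and -0.47 ± 0.22 in B6, and the difference between these effects was 0.79 ± 0.30 (limma adjusted p = 0.215). On B6 knockout array 3 the probe sets of a gene split by more than 1 log2 unit for 3 of the 19 members with several tested (Suv39h2, Pcgf6 and Chd4), against 0 to 2 on the other arrays.

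Of the deacetylase, NuRD and LSD1 genes, all 9 were tested, Mta1 rose in the B6 knockout and none passed in the 129Sv knockout. Mta1 encodes a subunit that recruits deacetylases to NuRD. It read 1077, 926 and 915 in B6 wild type and 1164, 1327 and 1526 in B6 knockout. In 129Sv it read 1069, 1123 and 1031 in wild type and 1475, 1233 and 1269 in knockout. All 3 knockout arrays lay above the wild-type arrays in each strain. The rise in B6 was 1.37-fold, 0.46 ± 0.12 on the log2 scale (limma adjusted p = 0.0364), and the difference in 129Sv was 0.30 ± 0.12 (adjusted p = 0.172). Averaged over the strains it was 0.38 ± 0.09 (adjusted p = 0.0091), and 0.25 (adjusted p = 0.058) when the probe sets of the gene were averaged.

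The Mta1 call in B6 was close to the threshold. It was lost without any 1 of 6 arrays, namely 129Sv wild-type 1 or 3, B6 wild-type 2 or 3, or B6 knockout 2 or 3 (limma adjusted p = 0.0537, 0.0543, 0.109, 0.148, 0.0856 and 0.117). When the Actb ratio entered the model the difference was 0.30 (adjusted p = 0.176), and in the fit of all probe sets the adjusted p was 0.0501. With the replicate numbers as a block it was 0.46 (adjusted p = 0.0655). The Mta1 promoter, at chr12:113098028-113098327 on the plus strand (GRCm38.p6, RefSeq), is shown as that of the member that rose in B6, and it holds 50 CpG dinucleotides, in capitals, the most of any member promoter.
Mta1: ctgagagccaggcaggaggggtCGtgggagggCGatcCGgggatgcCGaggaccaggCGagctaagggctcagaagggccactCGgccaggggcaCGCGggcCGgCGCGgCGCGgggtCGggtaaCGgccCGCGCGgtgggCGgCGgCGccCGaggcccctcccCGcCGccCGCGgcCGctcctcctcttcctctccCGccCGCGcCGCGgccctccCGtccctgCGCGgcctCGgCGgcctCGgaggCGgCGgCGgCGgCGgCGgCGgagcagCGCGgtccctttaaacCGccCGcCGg

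Hdac1, the catalytic deacetylase of NuRD and SIN3 complexes, read 913, 1101 and 1052 in 129Sv wild type and 1343, 1408 and 1077 in knockout. In B6 it read 1137, 1088 and 1133 in wild type and 1334, 1444 and 1501 in knockout. The knockout arrays were higher throughout B6, and in 129Sv knockout array 3 overlapped with wild type. Neither strain passed alone, at 0.32 ± 0.12 (limma adjusted p = 0.135) and 0.35 ± 0.12 (adjusted p = 0.0941). The average, 0.33 ± 0.09, did (1.26-fold, adjusted p = 0.0172), but not without 129Sv wild-type array 1 (0.29, adjusted p = 0.0547) or when the Actb ratio entered the model (0.28, adjusted p = 0.0563).

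Hdac2, the paralogue of HDAC1, differed by -0.05 ± 0.11 in 129Sv and -0.06 ± 0.11 in B6. Hdac3, the deacetylase of the NCoR complexes, differed by 0.21 ± 0.16 and 0.31 ± 0.16. Kdm1a (LSD1), which demethylates H3K4, differed by -0.06 ± 0.12 and -0.05 ± 0.12. The methyl-binding subunits Mbd2 and Mbd3 differed by 0.26 ± 0.11 and 0.40 ± 0.17 in B6 with separate groups, and neither passed (limma adjusted p = 0.168 and 0.175). The other tested probe set of Mbd2 went the opposite way in B6, by -0.29. Chd4, the remodelling ATPase of NuRD, read 589.6, 501 and 1049 in B6 knockout, so that the third array set its mean.

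Between the strains, wild-type testes differed in Eed and Ezh1, both of PRC2 and both higher in 129Sv. They were 2 of 34 members (5.88%) where 16.1% of all tested genes passed, 10.9% higher and 5.19% lower in 129Sv. Eed read 2059, 2849 and 2458 in 129Sv wild type and 1536, 1591 and 1873 in B6 wild type. The groups did not overlap, and the log2 difference, 129Sv minus B6, was 0.55 ± 0.14 (1.47-fold, limma adjusted p = 0.0127). For Ezh1, whose arrays are given above, it was 0.66 ± 0.18 (1.58-fold, adjusted p = 0.0247), also without overlap. Cbx8 just missed, at 0.59 ± 0.19 (adjusted p = 0.0501). The wild-type arrays are those of the knockout comparisons, so these values share them. The mean log2 level of the 9 germ cell markers was 10.56 to 10.66 per array in 129Sv wild type and 10.03 to 10.23 in B6 wild type, with 1 of the 9 passing (Rnf17, higher in 129Sv). The 8 macrophage markers had a median log2 difference of -0.50, with 0 passing by limma and 2 at an unadjusted p under 0.05. The part of these cells in the strain differences was not tested.

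These strain calls depended on single arrays. Eed lost its call without 129Sv wild-type array 2 or B6 wild-type array 1 or 2 (limma adjusted p = 0.0732, 0.0619 and 0.0517). When its probe sets were averaged, the second of which read at most 11.1, the difference in Eed was -0.026. For Ezh1 it was 0.31 with averaged probe sets (adjusted p = 0.233) and 0.69 with the title number in the model (adjusted p = 0.115). Ezh1 also lost its call without any 1 of the 129Sv wild-type arrays or B6 wild-type array 1 or 2 (adjusted p between 0.0511 and 0.104). The number of members called between the wild types was 0 without 129Sv wild-type array 2 or B6 wild-type array 1 or 2, 1 without 129Sv wild-type array 3, 4 without 129Sv knockout array 2 and 5 without B6 knockout array 3. Over single probe sets, Cbx5 was lower in 129Sv on 2 of its 4 tested ones, with log2 differences of -1.10 ± 0.27 (1421933_at, adjusted p = 0.0159) and -0.51 ± 0.15 (1421934_at, adjusted p = 0.0353). The brightest probe set of Cbx5 differed by 0.06 ± 0.10, so the probe sets of this gene disagreed. In all, 4 of the members' 66 probe sets passed, against 14.1% of all probe sets.

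Between the knockouts of the strains, members of all 5 groups differed. In 129Sv relative to B6, 13 members were higher and 3 lower, 16 of 34 (47.1%) where 34.1% of all tested genes passed, 20.3% higher and 13.8% lower. After centring each array on its median, 9 were higher and 5 lower. By complex, 7 of 13 PRC1 genes were higher (Bmi1, Cbx2, Cbx7, Cbx8, L3mbtl2, Pcgf6 and Phc1) and 1 lower (Phc3), and 3 of 5 PRC2 genes were higher (Eed, Ezh1 and Jarid2). The shares called were 61.5% for PRC1 and 60.0% for PRC2. Among related genes outside the members, 0 of 6 tested PRC2 genes passed (median log2 difference -0.13). Of 17 such PRC1 and PR-DUB genes, 8 were higher (47.1%) and 0 lower. Of the 5 tested H3K9 genes 1 was higher (Suv39h2), and of the 2 tested HP1 genes 1 was lower (Cbx5). Of the 9 deacetylase, NuRD and LSD1 genes, 2 were higher (Hdac2 and Mta2) and 1 lower (Mbd2). The shares of the H3K9 and deacetylase groups were not above that of all tested genes. With averaged probe sets 10 members passed, and 8 of them were among the 16. Eed and Hdac2 then turned to -0.23 and -0.063. Cbx5, Cbx8, Mbd2, Pcgf6 and Phc3 kept their direction but did not pass. Cbx7 was not tested there, since its averaged value was too dim. On the brightest probe sets the remaining 18 members did not pass, and the 16 became 9 without 129Sv knockout array 3 or B6 knockout array 2. The 3 members with the largest difference were Cbx7, Ezh1 and L3mbtl2, with log2 differences of 1.48 ± 0.22 (at least 2.57-fold), 0.91 ± 0.18 (1.88-fold) and 0.85 ± 0.18 (1.80-fold).

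Cell type markers moved widely in the same comparison. All 9 tested germ cell markers were higher in the 129Sv knockout than in the B6 knockout, with mean log2 levels of 10.44 to 10.96 and 9.14 to 9.45 per array. So were 7 of 8 pluripotent cell markers, with a median log2 difference of 1.35 over the 8. Lower in the 129Sv knockout were 5 of 8 macrophage markers, 5 of 8 endothelial markers, 3 of 4 Leydig cell markers and 5 of 12 Sertoli cell markers. In B6, 5 of the 9 germ cell markers fell in the knockout and 1 rose. The part of these shifts in the members' strain differences was not tested.

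**Figure D3:**
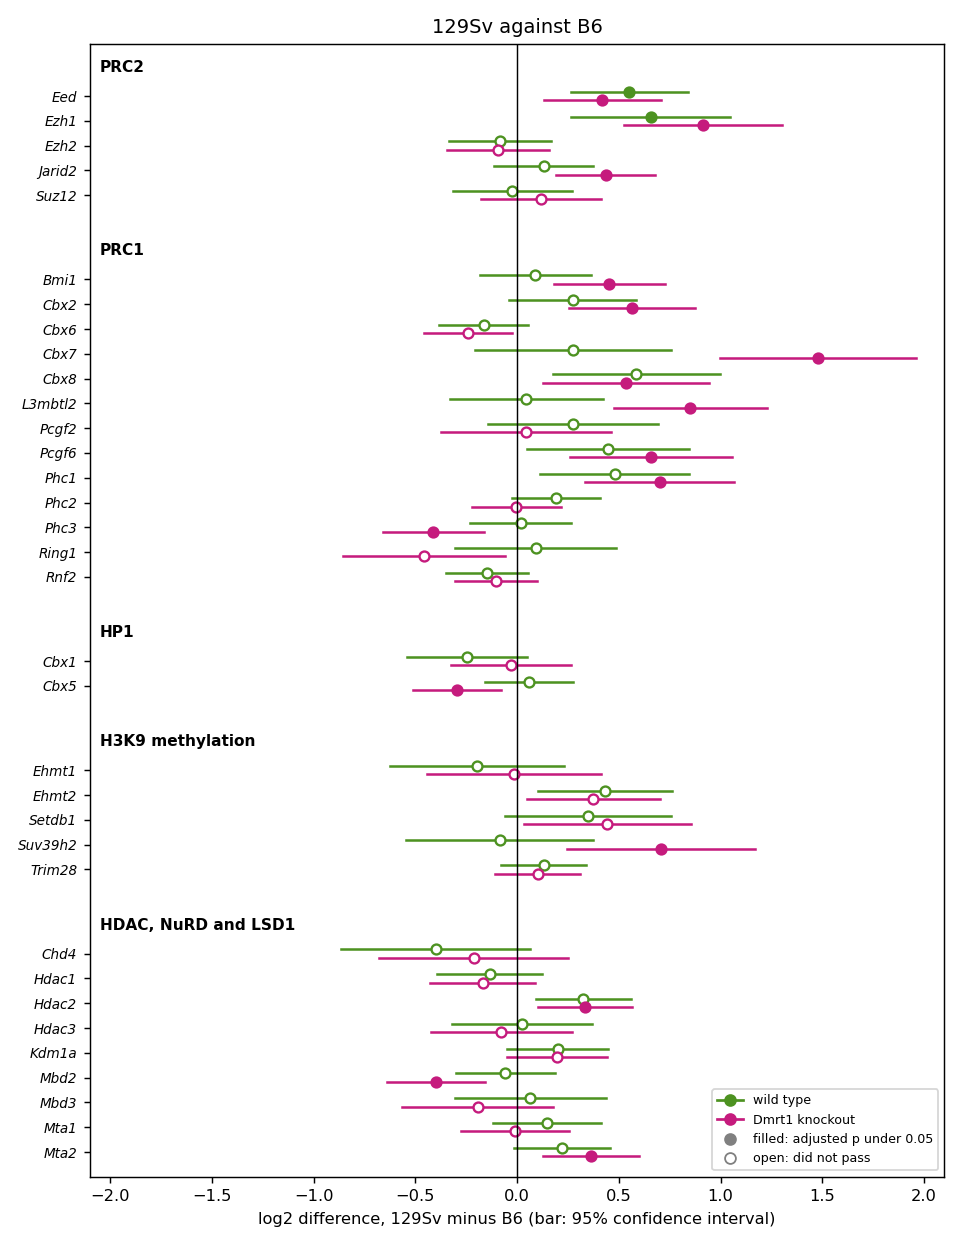
Log2 difference, 129Sv minus B6, of the 34 tested members in wild type (green) and in Dmrt1 knockout (magenta), with 95% confidence intervals from the fit over all genes (3 arrays per group). Filled points passed an adjusted p of 0.05, 2 in wild type and 16 in knockout, and Cbx7 at 1.48 lies farthest from 0.

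Cbx7 and Ezh1 varied most over the 4 groups. The median range of the 4 group means was 0.42 log2 units over the members and 0.50 over all tested genes, and the median SD within groups was 0.18 and 0.21. A range of over 1 log2 unit was found for Cbx7 (1.48) and Ezh1 (1.25), 5.88% of the members, and for 18.4% of all tested genes. The group with the highest mean was the 129Sv knockout for 11 members, the B6 knockout for 10, the 129Sv wild type for 8 and the B6 wild type for 5. Probe sets of a gene did not always share a direction. Of the 19 members with several tested, all probe sets of the gene moved one way for 14 in the 129Sv knockout, 8 in the B6 knockout and 8 between the wild types.

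The members' promoters were mostly rich in CpG, a feature the choice of genes did not use. RefSeq (GRCm38.p6) gave 40 promoters for 32 members, each 300 bases long. Of these, 31 (77.5%) had over 55% G and C and an observed to expected CpG ratio above 0.65, against 27.9% of all 32851 promoters of that length and 53.9% of those of tested genes. The median number of CpG dinucleotides was 26, against 7 over all promoters and 20 over those of tested genes. The letters ACANTGT, which form the centre of the DMRT1 binding motif and read the same on both strands, occurred in 1 member promoter (2.5%), that of Cbx6. They occurred in 7.54% of all promoters and in 4.12% of those of tested genes.

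Other genes of the same pathways came from 5 lists with 84 genes, of which 75 were tested. In the 129Sv knockout 3 rose (Sin3a, Kdm4c and Hells) and 2 fell (Kdm1b and Pcgf5). With the title number in the model none of these 5 passed (log2 differences of 0.53, 0.70, 0.65, -1.12 and -1.17, limma adjusted p = 0.212, 0.243, 0.062, 0.145 and 0.124). That model compares the 129Sv knockouts with wild-type array 2 alone. In the B6 knockout 1 rose (Mta3) and 5 fell (Kdm1b, Pcgf5, Sfmbt2, Phf8 and Prdm2). These shares, 6.67% and 8.00% of the 75, stand against the 8.31% and 7.90% of all tested genes named above. The difference between the strains' effects passed for 0 of the 75 by limma, with 17 at an unadjusted p under 0.05, a p that 16.3% of all tested genes had. Their median log2 differences were 0.04 in 129Sv and -0.01 in B6.

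Kdm1b encodes LSD2, an H3K4 demethylase needed for maternal imprints in oocytes. It read 1523, 1506 and 1696 in 129Sv wild type and 507, 651 and 1003 in knockout. The B6 arrays read 1105, 1003 and 1692 in wild type and 348, 362 and 216 in knockout. Every knockout array was below every wild-type array of its strain. It fell by 1.18 ± 0.25 on the log2 scale in 129Sv (2.27-fold, limma adjusted p = 0.0077) and by 2.04 ± 0.25 in B6 (4.10-fold, adjusted p = 0.000178). The difference between these effects was 0.85 ± 0.36 (adjusted p = 0.257).

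Pcgf5, which encodes a RING finger subunit of a variant PRC1, read 402, 539 and 419 in 129Sv wild type and 211, 183 and 355 in knockout. In B6 it read 131, 202 and 257 in wild type and 60.2, 58.6 and 62.2 in knockout. It fell by 0.91 ± 0.26 on the log2 scale in 129Sv (1.88-fold, limma adjusted p = 0.0417) and by 1.65 ± 0.26 in B6 (3.14-fold, adjusted p = 0.0011). The B6 call held without any 1 array. In 129Sv it was lost without any 1 array of that strain but knockout array 3, and without B6 wild-type array 2 or B6 knockout array 2 (adjusted p between 0.0522 and 0.185). A dimmer probe set of Pcgf5 (1434666_at) differed by 0.18 ± 0.17 and -0.29 ± 0.17, and with both averaged the 129Sv difference was -0.29 (adjusted p = 0.355).

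Sfmbt2, a Polycomb gene related to L3mbtl2 by its MBT domains, read 66.0, 95.5 and 130.1 in B6 wild type and 34.1, 37.1 and 29.5 in knockout. It fell by 1.49 ± 0.31 on the log2 scale (2.80-fold, limma adjusted p = 0.0086), and by 1.25 without B6 wild-type array 3 (adjusted p = 0.0582). In 129Sv its knockout arrays spread from 81.2 to 220.0 around wild-type values of 145 to 194. Phf8, an H3K9 demethylase gene, and Prdm2, which encodes a SET domain protein, fell in B6 by 0.68 ± 0.14 and 0.58 ± 0.10 (adjusted p = 0.0078 and 0.0029). With averaged probe sets Sfmbt2, Phf8 and Prdm2 differed by -0.79, -0.25 and -0.30, and none passed (adjusted p = 0.0783, 0.238 and 0.0879). Mta3, a NuRD subunit gene related to Mta1, rose in B6 by 0.49 ± 0.14 (adjusted p = 0.0474). That call was lost without any 1 array of B6, with averaged probe sets, with the replicate block and with the Actb ratio in the model, among other settings (adjusted p between 0.0508 and 0.141).

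Sin3a, the scaffold of a deacetylase complex, read 278, 353 and 276 in 129Sv wild type and 499, 556 and 478 in knockout. It rose by 0.77 ± 0.15 on the log2 scale (1.70-fold, limma adjusted p = 0.0048). In B6 it read 297, 298 and 356 in wild type and 333, 272 and 327 in knockout, which overlap. Kdm4c, an H3K9 demethylase gene, and Hells, a remodeller needed for DNA methylation, rose in 129Sv by 0.69 ± 0.19 and 0.51 ± 0.12 (adjusted p = 0.0367 and 0.0172). The Kdm4c call was lost without any 1 of the 129Sv arrays but knockout array 3 (adjusted p between 0.0909 and 0.15), and that of Hells without 129Sv wild-type array 2 or knockout array 1 or 2 (adjusted p = 0.0771, 0.0501 and 0.0874). With averaged probe sets Hells differed by 0.33 (adjusted p = 0.35).

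**Figure D4:**
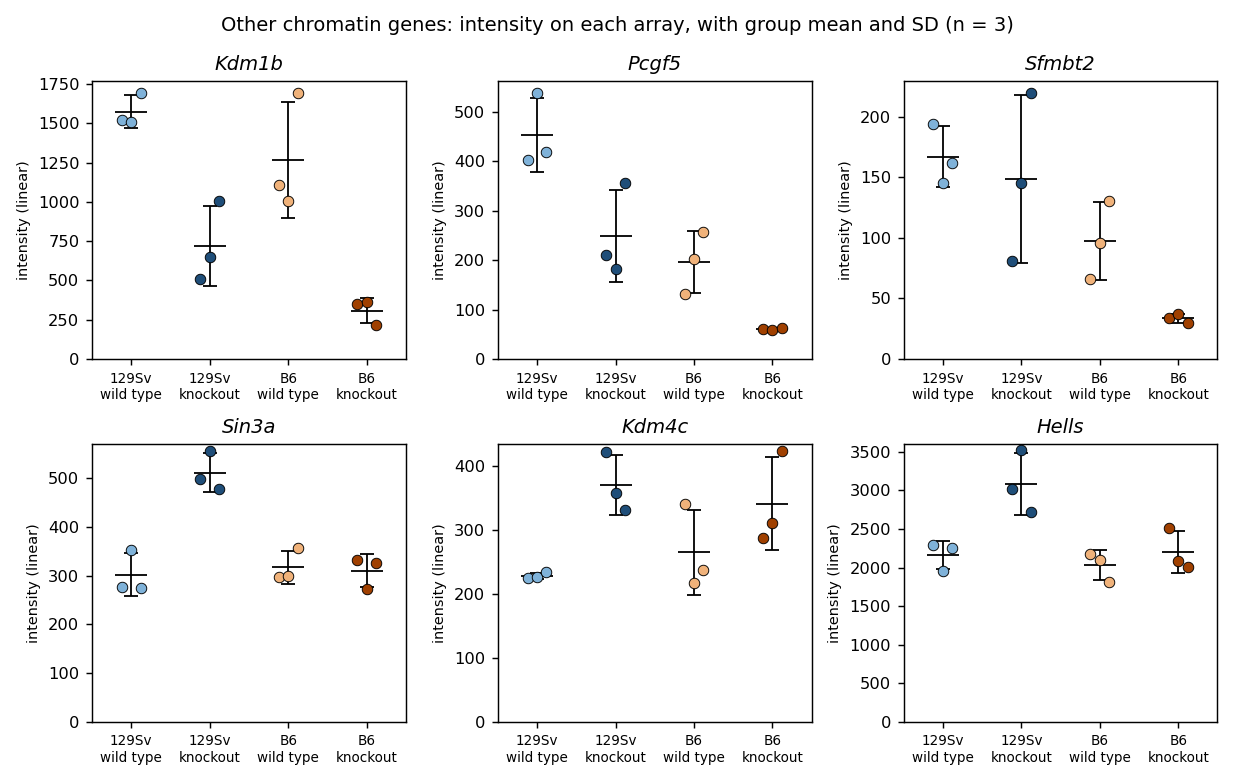
Intensity on each of the 12 arrays (points), with group mean and SD (lines, n = 3), of 6 further chromatin genes; each vertical axis is linear, starts at 0 and has its own scale. Kdm1b and Pcgf5 are lower in both knockouts, Sfmbt2 is low in the B6 knockout, and Sin3a and Hells are high in the 129Sv knockout.

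Germ cell markers moved with these genes in B6, where the mean log2 level of the 9 markers was 10.03 to 10.23 in wild type and 9.14 to 9.45 in knockout, and their part was not tested. Between the wild types, 8 of the 75 genes were higher in 129Sv and 3 lower, 14.7% where 16.1% of all tested genes passed. The largest log2 differences were 1.25 ± 0.26 for Pcgf5, 0.70 ± 0.18 for Rcor2 and 0.66 ± 0.17 for Bcorl1, and -0.59 ± 0.14 for Rcor3 and -0.58 ± 0.17 for Trps1 (limma adjusted p between 0.0052 and 0.027). With averaged probe sets Pcgf5, Bcorl1, Rcor3 and Trps1 did not pass (0.45, 0.24, -0.06 and -0.65, adjusted p = 0.0817, 0.184, 0.741 and 0.0606). Rcor2, Rcor3, Bcorl1 and Trps1 each lost the call without 129Sv wild-type array 2 or without B6 wild-type array 1 (adjusted p between 0.0588 and 0.115). In the knockouts 25 of the 75 were higher in 129Sv and 3 lower, 37.3% where 34.1% of all tested genes passed.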

How the data were processed

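Total RNA of 12 testis samples was measured on 12 arrays, in groups taken from the sample descriptions. The deposited values are intensities per probe set, made by the authors with GCRMA (background correction, quantile normalisation and probe summary), per the submitters' processing notes; the sources used here do not give its version. They were at least 1.4, with medians of 17.34 to 19.0, so they were read as linear and log2 was taken here; the design had assumed deposited log2 values. Genes are named by the platform annotation and represented by their brightest probe set. The 12726 genes with a log2 value of 4 or more in at least 3 arrays were tested.

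The 4 group means were fitted with limma 3.58.1 in R 4.3.3 (lmFit, eBayes with trend, 8 residual and 6.71 prior degrees of freedom). Benjamini-Hochberg adjustment ran over all tested genes, or over 21900 probe sets in a second fit, and 0.05 was the threshold. The fit was also run on simulated data of independent genes. These held no arrays of poorer RNA and no probe sets that disagree, and the outcome is not used here. Errors of differences are standard errors, and a fold against a group mean below 16 is given as "at least". The number of arrays, 3 per group, limits the precision.

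Members, pathway lists and marker lists were chosen with earlier results of these data known. The rule gave array values for members past the threshold in a knockout, in the difference of effects or between wild types, and named up to 5 pathway genes per main comparison. Array values of other members were added after they were seen. Alternatives were other filters, probe set rules, scalings, covariates, blocks and each array left out.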

Additional observations from a re-analysis of the deposited data

Results flagged for a closer look

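Phc3, a polyhomeotic subunit gene of PRC1, was singled out because its arrays separated in opposite directions in the strains. Every 129Sv knockout array lay below every 129Sv wild-type array, and every B6 knockout array lay above every B6 wild-type array. The difference between the knockout effects, 129Sv minus B6, was -0.43 ± 0.16 on the log2 scale. It did not pass over all tested genes (limma adjusted p = 0.212). Of all tested genes, 1.59% separated in opposite directions in this way.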

How the results depend on the processing

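Over the members that passed in some comparison, 592 values were recomputed under the alternatives, of which 488 kept direction and side of the threshold, 101 kept the direction but no longer passed, and 3 reversed. The 3 came from averaging all probe sets of a gene, some near background, and the pathway gene Mta3 reversed with them. There Eed between strains was -0.026 in wild type and -0.23 in knockout, Hdac2 between the knockouts -0.063 and Mta3 between the wild types -0.091. The 592 values are not independent checks, since leaving out an array outside a comparison leaves its difference unchanged.

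The 2 members called in the 129Sv knockout became 1 with a log2 filter of 6 and with averaged probe sets. In both of these settings Cbx7 was too dim to be tested. The 2 became 0 when the title number entered the model. The 1 called in the B6 knockout became 0 with only the groups compared, with the replicate block, with the Actb ratio in the model and without the 2 arrays of the highest ratio. The 0 for the difference of effects became 1 with values below 4 (log2) set to 4. The 4 for the averaged knockout became 0 with the title number and 2 without the 2 arrays. The 2 between the wild types became 1 with averaged probe sets (Suv39h2, neither Eed nor Ezh1), 7 with only the groups compared and 6 without the 2 arrays. The 16 between the knockouts became 10 with averaged probe sets (8 of them among the 16) and 9 with only the groups compared. Leaving out each array gave 1 to 3, 0 to 3, 0, 3 to 5, 0 to 5 and 9 to 17 in these comparisons. The cause was not tested beyond what the settings remove.

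Deviations of same-numbered arrays from their group means correlated between -0.47 and 0.30. Differently numbered arrays were not compared, so these values cannot settle whether replicate numbers pair the samples. With the number as a block the counts were 2, 0, 0, 4, 2 and 14. The B6 wild-type and knockout arrays 1 share a first title number, as do the arrays 2; with it as a random block the counts were 2, 1, 0, 4, 2 and 16, those given in the report. The 1 in the B6 knockout was Ezh1 in place of Mta1 with averaged probe sets and with no variance trend. Signals near an intensity of 16, such as that of Cbx7, limit the folds.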

Other observations

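Cbx3, which encodes HP1 gamma, was read by 4 probe sets that the annotation also assigns to the pseudogene Cbx3-ps5, so they entered no comparison. The brightest of them read 6475 ± 238 and 6616 ± 723 (SD, n = 3) in 129Sv wild type and knockout, and 6725 ± 230.3 and 6821 ± 126 in B6. Signal of the gene and of its pseudogene cannot be told apart on it.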
